A study of Mus musculus with 7 samples.

Results

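The regions described are stretches of mouse liver chromatin at gene promoters in which DNase I gave a hotspot, a cluster of cleavage tags above background, and in which neither Benzonase nor Cyanase gave one. They were chosen by the presence and absence of hotspots in 3 deposited lists, 1 for each enzyme. Hotspots of chromosomes 1 to 19 that overlapped by at least 1 bp were merged into 90879 regions, and 25405 of these (28.0%) held a DNase I hotspot alone. A region was counted at a promoter when it reached within 1 kb of a transcription start site (TSS) of a protein-coding transcript, which gave 15994 promoter regions. Of these, 977 held DNase I alone, or 6.11% (95% Wilson interval 5.75 to 6.49).

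The libraries came from liver of male C57BL/6 mice aged 8 weeks. DNase I was applied to nuclei purified from fresh liver, and the labels list 1 such sample, whereas the header of its list names 2 pooled libraries. Benzonase and Cyanase, endonucleases that tolerate detergent and reducing agents, were applied to pulverized frozen liver without purification of nuclei, with 3 samples each at 0.25, 1 and 4 U. The enzyme and the starting material therefore changed together and cannot be told apart in any comparison below. Each list was called on the pooled tags of its enzyme, so there is no spread between samples, no test between samples could be made, and the intervals given cover counting error only. The lists give positions without tag numbers, and the depth of a hotspot is therefore unknown. The paper reports that unique hotspots were commonest among the weakest DNase I hotspots, and raises background digestion as a possible source of them. This was not tested here. They held 72286 DNase I, 60910 Benzonase and 57675 Cyanase hotspots, and the 69897, 59040 and 55904 of them on chromosomes 1 to 19 were used. Whole liver is mostly hepatocytes by mass, with sinusoidal endothelial, stellate, bile duct and resident macrophage (Kupffer) cells among them. In such bulk tissue fewer accessible cells and less accessibility per cell cannot be told apart.

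Mammalian promoters are commonly divided by their density of CpG dinucleotides. Promoters rich in CpG are typical of housekeeping genes, are often accessible in many cell types and frequently hold sites for SP1 and NRF1. Promoters poor in CpG are typical of genes restricted to certain tissues, more often carry a TATA box near the start site, and become accessible where factors of that cell type bind, such as HNF1, HNF4, FOXA and C/EBP in hepatocytes or PU.1 in macrophages.

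Sequences that carry the pattern are shown first. They are the 150 bp before start sites that lay inside a DNase I-only region and had no other enzyme within 1 kb, read 5′ to 3′ along the gene from mm9 (NCBIM37). The genes were chosen after their values were seen. The first set holds immune genes in which the capitals mark the letters GAGGAAGT of the PU.1 motif or their reverse complement. Ccl24 encodes a chemokine that attracts eosinophils, Clec10a a C-type lectin of macrophages and dendritic cells, Cd300ld a leukocyte receptor of the CD300 family and Nlrp1b an inflammasome sensor.
Ccl24 (chr5:136048914-136049063, minus strand): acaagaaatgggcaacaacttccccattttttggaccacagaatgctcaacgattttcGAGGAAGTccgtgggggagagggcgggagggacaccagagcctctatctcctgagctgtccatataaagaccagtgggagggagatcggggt
Clec10a (chr11:69979975-69980124, plus strand): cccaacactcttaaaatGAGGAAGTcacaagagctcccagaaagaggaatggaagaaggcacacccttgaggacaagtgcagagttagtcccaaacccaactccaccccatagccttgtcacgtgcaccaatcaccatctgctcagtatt
Cd300ld (chr11:114851237-114851386, minus strand): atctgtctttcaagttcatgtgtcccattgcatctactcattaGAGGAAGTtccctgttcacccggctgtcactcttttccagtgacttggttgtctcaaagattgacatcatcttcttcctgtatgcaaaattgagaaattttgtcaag
Nlrp1b (chr11:71044236-71044385, minus strand): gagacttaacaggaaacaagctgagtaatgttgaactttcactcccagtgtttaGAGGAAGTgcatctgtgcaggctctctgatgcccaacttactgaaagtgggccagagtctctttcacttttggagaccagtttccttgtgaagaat

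The second set holds genes of hepatic and epithelial transport and conjugation. The capitals mark the HNF1 letters GTTAATNAT, on either strand, in Sult2a3 (a sulfotransferase), Slc22a29 (an organic anion transporter) and Kcnj16 (a potassium channel), and the HNF4 letters CAAAGTCCA in Baat, which conjugates bile acids to amino acids, and Slc3a1, the heavy subunit of a cystine and dibasic amino acid transporter.
Sult2a3 (chr7:14708394-14708543, minus strand): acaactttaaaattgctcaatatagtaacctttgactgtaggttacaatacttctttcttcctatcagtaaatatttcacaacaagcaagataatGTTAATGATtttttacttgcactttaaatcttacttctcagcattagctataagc
Slc22a29 (chr19:8293390-8293539, minus strand): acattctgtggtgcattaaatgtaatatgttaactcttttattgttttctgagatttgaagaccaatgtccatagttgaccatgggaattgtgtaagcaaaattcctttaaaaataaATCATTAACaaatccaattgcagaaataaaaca
Kcnj16 (chr11:110829197-110829346, plus strand): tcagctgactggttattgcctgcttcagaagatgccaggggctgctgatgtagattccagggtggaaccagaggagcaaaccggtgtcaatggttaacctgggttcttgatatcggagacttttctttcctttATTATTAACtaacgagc
Baat (chr4:49519430-49519579, minus strand): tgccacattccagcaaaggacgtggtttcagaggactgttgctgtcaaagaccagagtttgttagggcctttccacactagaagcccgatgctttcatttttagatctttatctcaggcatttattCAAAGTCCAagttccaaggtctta
Slc3a1 (chr17:85427537-85427686, plus strand): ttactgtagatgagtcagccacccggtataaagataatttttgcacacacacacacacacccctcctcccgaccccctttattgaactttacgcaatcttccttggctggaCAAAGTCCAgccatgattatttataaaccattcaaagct

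The third set holds start sites with the TATA box letters TATAAA, in capitals and on either strand, in 2 cytochrome P450 genes and in Il1b, the gene for interleukin 1 beta. The letters began 28 bp before the start site in Cyp2d9, 29 bp before it in Cyp2c55 and 31 bp before it in Il1b.
Cyp2d9 (chr15:82282657-82282806, plus strand): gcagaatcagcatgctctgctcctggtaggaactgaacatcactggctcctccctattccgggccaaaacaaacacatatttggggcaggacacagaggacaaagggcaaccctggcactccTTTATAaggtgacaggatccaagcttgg
Cyp2c55 (chr19:39081359-39081508, plus strand): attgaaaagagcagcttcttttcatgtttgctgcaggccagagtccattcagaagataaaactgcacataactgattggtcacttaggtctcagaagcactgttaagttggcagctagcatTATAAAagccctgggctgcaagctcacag
Il1b (chr2:129196876-129197025, minus strand): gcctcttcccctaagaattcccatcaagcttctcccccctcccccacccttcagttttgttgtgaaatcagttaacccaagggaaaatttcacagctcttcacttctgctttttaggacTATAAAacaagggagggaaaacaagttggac

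The last set holds 3 genes typical of Kupffer cells and other macrophages, in which none of the 15 motifs searched was found in these 150 bp. Cd5l encodes a secreted scavenger protein of tissue macrophages, Marco a scavenger receptor for bacteria and particles, and Lyz2 the lysozyme of myeloid cells. CpG dinucleotides numbered 0 in the Cd5l and Marco stretches and 1 in the Lyz2 stretch.
Cd5l (chr3:87161653-87161802, plus strand): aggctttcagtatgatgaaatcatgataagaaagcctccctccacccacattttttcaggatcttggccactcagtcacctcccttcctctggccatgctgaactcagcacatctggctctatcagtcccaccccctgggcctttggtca
Marco (chr1:122401662-122401811, minus strand): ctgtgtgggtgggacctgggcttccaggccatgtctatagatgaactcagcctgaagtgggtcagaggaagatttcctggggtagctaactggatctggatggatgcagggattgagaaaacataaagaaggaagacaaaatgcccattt
Lyz2 (chr10:116719378-116719527, minus strand): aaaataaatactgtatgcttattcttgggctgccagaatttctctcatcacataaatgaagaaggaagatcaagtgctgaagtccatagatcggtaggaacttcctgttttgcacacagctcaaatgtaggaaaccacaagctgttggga

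DNase I-only promoter regions were narrow and poor in GC. Their median width was 553 bp (quartiles 456 and 632, widest 1421), against 1344 bp for the 10887 promoter regions of all 3 enzymes and 621 bp for the 3825 promoter regions of Benzonase or Cyanase without DNase I. All 977 held a single DNase I hotspot, whereas a region of all 3 enzymes merges hotspots of each. Its greater width therefore follows in part from the merging. Single hotspots of the whole DNase I list had a median width of 651 bp. GC content averaged 43.8% ± 5.12 (SD over 977 regions), whereas the promoter regions of all 3 enzymes averaged 56.3% ± 6.11 and those of Benzonase or Cyanase without DNase I 61.6% ± 6.99. The ratio of observed to expected CpG had a median of 0.216, against 0.675 and 0.610 in these groups. In these respects the promoter regions were close to the 24428 DNase I-only regions away from promoters, with a median width of 551 bp, a GC content of 42.4% ± 5.19 and a CpG ratio of 0.182.

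In GC content the regions lay close to their surroundings. The 5 kb on each side of the DNase I-only promoter regions averaged 44.8% GC, and the regions lay 1.02 percentage points below it on average (SD 4.37). GC content was above that of the flanks in 403 of 977 regions, 41.2% (38.2 to 44.4), against 94.8% (94.3 to 95.2) of the promoter regions of all 3 enzymes and 97.8% (97.3 to 98.2) of those of Benzonase or Cyanase without DNase I. The flanks of all 3 groups were alike, from 44.8% to 47.2% GC.

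**Figure D1:**
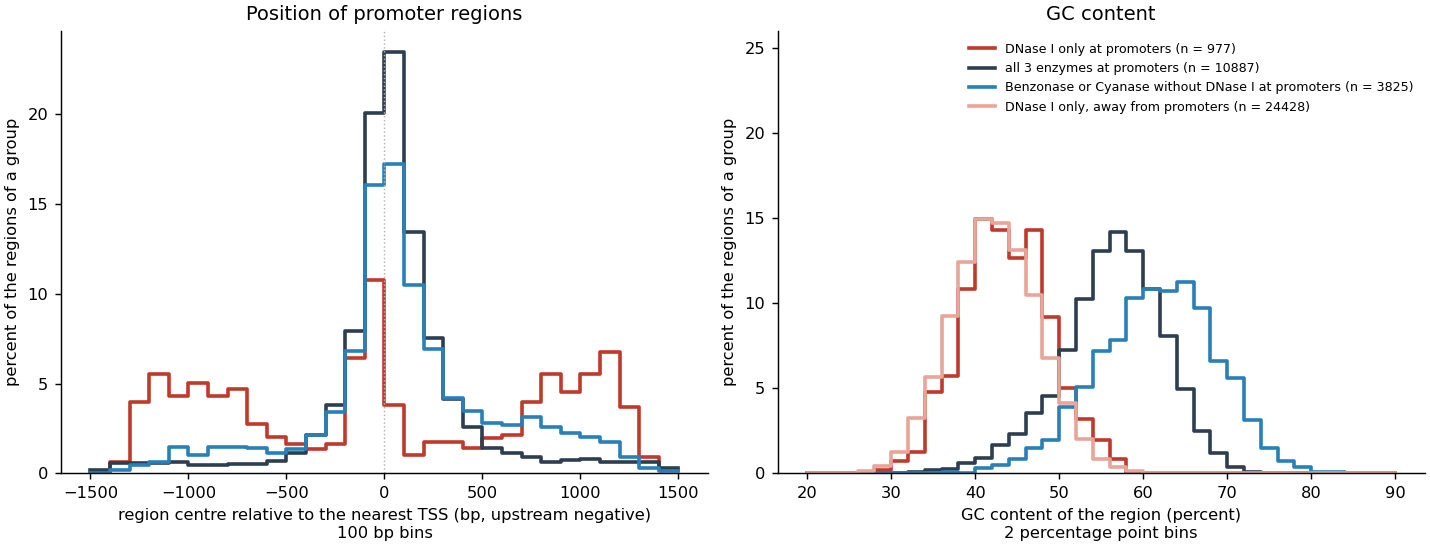
Left, position of the region centre relative to the nearest TSS, in bp along the gene, as the percent of regions in 100 bp bins. Right, GC content in bins of 2 percentage points. Regions of all 3 enzymes form 1 peak at the start site. DNase I-only promoter regions (red, n = 977) form a small peak just upstream of it and broad shoulders toward 1 kb on both sides. The 1 kb window sets the outer edge of the shoulders. The GC content of the DNase I-only promoter regions follows that of DNase I-only regions elsewhere.

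With the 1 kb window, most DNase I-only promoter regions did not cover the start site. A TSS lay inside 232 of them, 23.7% (21.2 to 26.5), or 51.6% with a window of 500 bp, against 91.0% of the promoter regions of all 3 enzymes and 61.8% of those of Benzonase or Cyanase without DNase I. The centre lay a median of 807 bp from the nearest TSS, against 125 bp and 195 bp. It was under 250 bp away in 233 regions, 250 to 500 bp away in 75, 500 bp to 1 kb away in 360 and 1 kb or more away in 309, so that the positions fell into a cluster at the start site and a wider band at the rim of the window. The centre was upstream in 538 regions (55.1%). Since a region qualifies by reaching the window, its centre may lie outside it. The window also sets the outer edge of the band, and with a window of 2 kb 1993 regions qualified. At the rim, the regions next to Elmo2, a regulator of Rac signalling, and Dram2, a lysosomal membrane protein, ended 1000 and 998 bp from the TSS and were counted, and those next to 4632411B12Rik and Akr1c6, at 1001 and 1003 bp, were not. At the other limit, the regions at Rundc3a and Zfp655 touched a hotspot of another enzyme without overlap and were counted, and those at Fam71f2 and Man1a2 overlapped one by 1 and 10 bp and were not.

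Each start site was classed by its sequence alone, from windows of 500 bp within 1 kb, as high CpG (a window with GC of at least 55% and a CpG ratio of at least 0.75), low CpG (no window with a ratio of 0.48 or more) or intermediate. Of the DNase I-only promoter regions, 440 (45.0%, 41.9 to 48.2) were nearest to a low CpG start site, 219 (22.4%) to an intermediate one and 318 (32.5%) to a high one. Promoter regions of all 3 enzymes were nearest to a low CpG start site in 11.5% and to a high one in 72.2%. Counted over start sites, 304 of the 24897 that lay in any region lay in a DNase I-only region, or 1.22%. The share was 11.2% for low CpG start sites (230 of 2052), 1.61% for intermediate ones (64 of 3980) and 0.053% for high ones (10 of 18865).

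The 977 regions fell into 4 kinds by whether they covered a TSS and whether Benzonase or Cyanase had a hotspot within 1 kb of the same TSS. The first kind covered a start site with no other enzyme in the window, and numbered 191 (19.5%, 17.2 to 22.2) at 188 genes. Their nearest TSS was of low CpG class in 142 (74.3%) and of high class in 5. The nearest Benzonase or Cyanase hotspot was a median of 10673 bp away and at most 213878 bp, and in 96 of the 191 it was over 10 kb away. The second kind, 41 regions, also covered a start site but had another enzyme in the window, a median of 347 bp away. It held Hc, the gene of complement component C5, Hsd3b3, a hydroxysteroid dehydrogenase, Ugt2b37, a glucuronosyltransferase, and Mup20, the pheromone darcin.

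The third kind lay beside a start site that other enzymes had marked, and numbered 484 (49.5%, 46.4 to 52.7). The nearest TSS was of high CpG class in 303 (62.6%), and a Benzonase or Cyanase hotspot covered that TSS in 441 (91.1%). The gap to the nearest such hotspot was a median of 219.5 bp and was under 500 bp in 421 (87.0%). They lay upstream in 213 cases and downstream in 271. In 402 of them the TSS was inside a region of all 3 enzymes, which allows a comparison within each locus. The region on the TSS had a GC content of 55.6% ± 6.55 and the DNase I-only region beside it 43.1% ± 4.47, a difference of 12.5 percentage points (SD 7.02 over 402 pairs), and the region on the TSS was the higher in 385 pairs, 95.8% (93.3 to 97.3). The CpG ratio was a median of 0.692 on the TSS and 0.234 beside it, and the width 1312.5 and 556.5 bp. The difference in width follows in part from the merging of hotspots of all 3 enzymes on the TSS. DNase I had a hotspot at both places in these pairs, and the second place lacked the other enzymes by the choice of regions. The regions of a pair also differed in position, on the TSS or beside it. No other stretch beside the TSS was compared, so the part of position in these differences was not tested.

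The fourth kind lay beside a start site with no other enzyme in the window and numbered 261 (26.7%, 24.0 to 29.6). It resembled the first kind, with a low CpG start site in 185 (70.9%) and a gap of 7900 bp at the median to the nearest Benzonase or Cyanase hotspot. GC content was alike over the 4 kinds, from 43.4% to 44.9% on average, and the median width ranged from 535 to 569 bp. The split between the kinds depends on the rules for overlap and window. When hotspots had to overlap by 50% of both to be joined, 4045 promoter regions held DNase I alone and 88.6% of them had another enzyme in the window, against 53.7% here. That share was 22% with a window of 500 bp, 68.0% with 2 kb, 40.7% with hotspots within 150 bp joined, and 14.9% without regions within 500 bp of another enzyme.

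**Figure D2:**
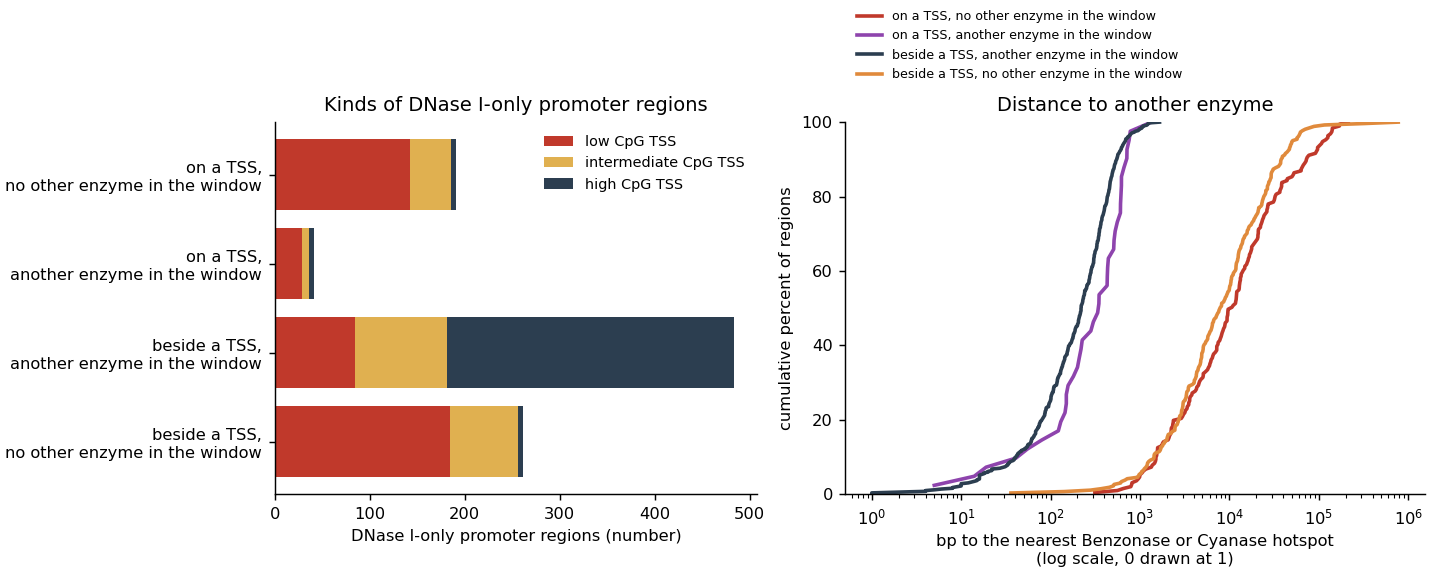
Left, number of DNase I-only promoter regions of each kind, stacked by the CpG class of the nearest TSS. Right, cumulative percent of regions by the distance in bp to the nearest Benzonase or Cyanase hotspot, on a log scale. Regions beside a TSS that other enzymes mark (484) lie mostly at high CpG start sites and within 500 bp of another hotspot, and regions with no other enzyme in the window lie mostly at low CpG start sites and kilobases away.

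Genes were then placed by the hotspots within 1 kb of all their start sites. Of 21410 protein-coding genes, 258 (1.21%, 1.07 to 1.36) had hotspots of DNase I alone, 10847 had all 3 enzymes, 126 DNase I with 1 other, 2453 Benzonase or Cyanase without DNase I, and 7726 none. Among the 6183 genes whose start sites were all of low CpG class, the share with DNase I alone was 2.67% (2.30 to 3.10). Counts in gene groups are given beside these values as a description, because the same hotspots chose the regions.

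Kupffer cell and macrophage markers were among the 2 groups with the highest share. DNase I alone marked 10 of 35, or 28.6% (16.3 to 45.1), and it did so at 9 of the 28 whose start sites were all of low CpG class (32.1%, 17.9 to 50.7). The group had all 3 enzymes at 8 genes, DNase I with 1 other at 3, Benzonase or Cyanase without DNase I at 1 and no hotspot at 13. They included Cd5l, Cd68, Clec7a, Csf1r, Itgam, Lyz2, Marco, Mpeg1 and Timd4, and in 7 of the 10 a DNase I-only region lay on the start site itself. At Clec7a the window held DNase I alone but no DNase I-only region, because its hotspot was merged with one of another enzyme outside the window. Among the markers of Kupffer cells fixed for the check of cell types, Cd5l, Marco, Csf1r and Timd4 had DNase I alone, Clec4f had DNase I and 1 other enzyme, and Vsig4 lies on chromosome X and was not counted.

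At Marco the DNase I-only region spanned chromosome 1 from 122401220 to 122401757 on mm9, covered the start of the first exon and was 47.2% GC, and the nearest Benzonase or Cyanase hotspot was 77514 bp away. At Cd5l the region lay on chromosome 3 from 87161495 to 87162033, with a CpG ratio of 0.0315 and the nearest other enzyme 52897 bp away. Timd4, which encodes a receptor for phosphatidylserine on dying cells, had its region on chromosome 11 from 46623919 to 46624502, 24407 bp from another enzyme. These 3 genes thus had no other enzyme within 20 kb of the region. Cd68, a lysosomal glycoprotein of macrophages, differed from them: its region on chromosome 11 from 69479421 to 69480103 was 1765 bp from a Benzonase hotspot, and regions of all 3 enzymes lay on both sides within 10 kb. The gap was 37747 bp at Lyz2, 14299 bp at Mpeg1, the gene of the pore-forming perforin-2, and 1506 bp at Csf1r, the receptor for the macrophage growth factor CSF1; these 3 genes fall outside the naming rule and were named after their values were seen. Msr1, a scavenger receptor, had a DNase I-only region on one start site, 4649 bp from another enzyme, and counted under all 3 enzymes because of its other start site.

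**Figure D3:**
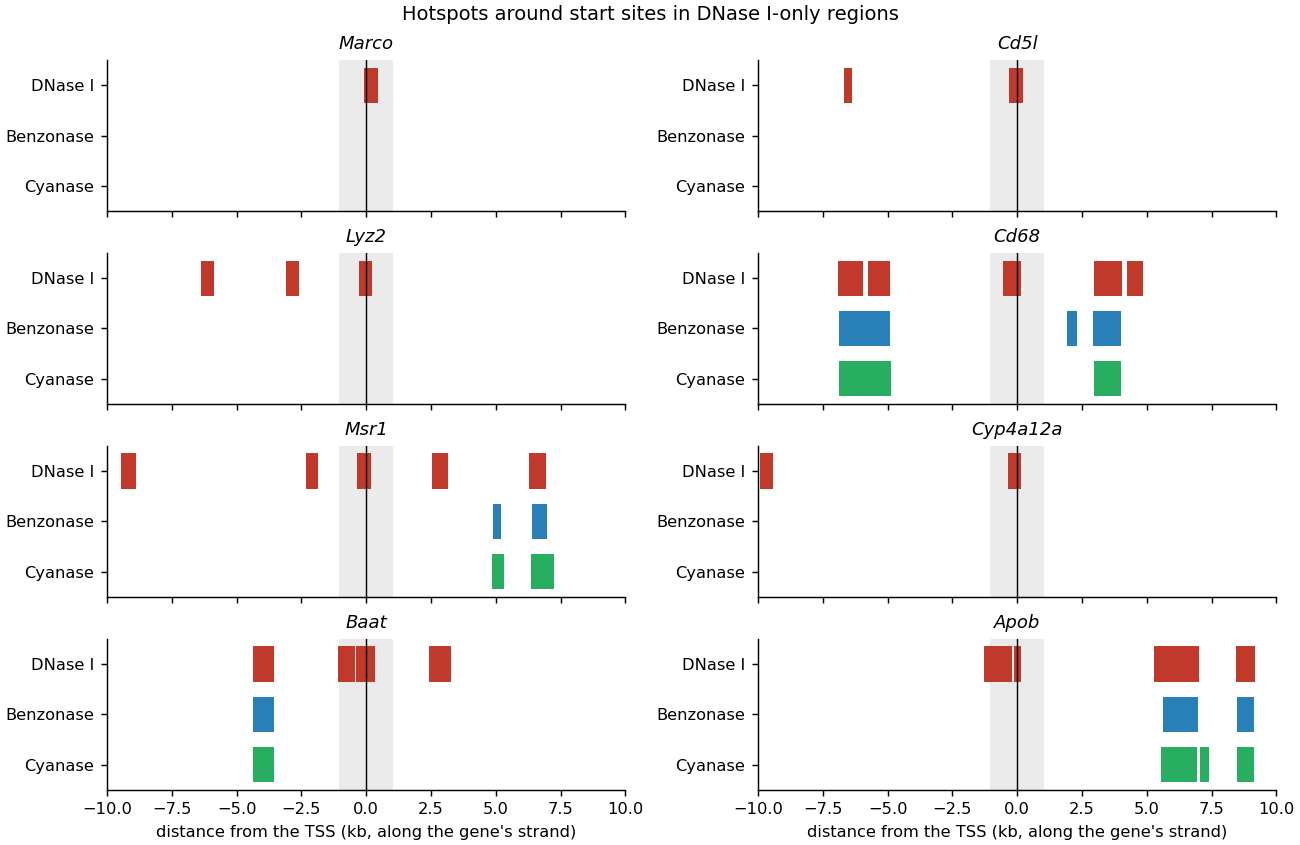
Hotspots of each enzyme as bars within 10 kb of start sites that lie in a DNase I-only region, by distance from the TSS in kb along the gene. The grey band is the 1 kb window on each side. DNase I alone marks the window in all 8 panels, and at Marco, Cd5l, Lyz2 and Cyp4a12a Benzonase and Cyanase have no hotspot in the 20 kb shown. The Apob panel is centred on a start site inside the gene.

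Other families of immune genes are given next. C-type lectins and NK receptors, surface receptors that recognise carbohydrates or relatives of MHC class I, had DNase I alone at 8 of 60 genes (13.3%, 6.91 to 24.2), and 7 of the 8 had the region on a start site. Clec4a2 had its region 170166 bp from another enzyme, Clec4a1 22244 bp, Clec12a 15584 bp and Clec2h 8207 bp. Genes of CD antigens had DNase I alone at 6 of 86 (6.98%, 3.24 to 14.4), among them Cd180, a receptor related to the Toll-like receptors, and Cd53, a tetraspanin of leukocytes whose region was 67265 bp from another enzyme. Interleukins, chemokines and their receptors had DNase I alone at 9 of 161 (5.59%, 2.97 to 10.3). Cxcl9, a chemokine that attracts T cells, had one of the widest regions with 1040 bp, and Ccl24, Ccl12 and Il1a had regions of 586, 571 and 540 bp. These lists overlap with the macrophage markers, and Cd68 and Cd5l were counted both there and as CD antigens. The shares describe the lists and are no test, because the same hotspots chose the regions.

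The other non-hepatocyte markers had DNase I alone at 0, 1 or 2 genes of each list. Sinusoidal endothelial markers had DNase I alone at 0 of 34 genes, with all 3 enzymes at 16 and Benzonase or Cyanase without DNase I at 12. Stellate cell markers had it at 0 of 27, with all 3 enzymes at 8 and Benzonase or Cyanase without DNase I at 11. Counts of 0 of 34 and 0 of 27 allow shares of up to 10.2% and 12.5% (Wilson). Only 12 of these endothelial and 7 of these stellate genes had start sites of low CpG class only, against 28 of the 35 macrophage markers. Counts of 0 of 12 and 0 of 7 allow shares of up to 24.2% and 35.4%. Both intervals overlap the 17.9 to 50.7% of the low CpG macrophage markers. Lymphocyte markers had it at 1 of 56, which was Ptprc, the CD45 phosphatase of all leukocytes, and had no hotspot at 47. Neutrophil and mast cell markers had it at 1 of 27, Il1b, and bile duct markers at 2 of 25, Spp1 and Ehf, where the region lay beside the start site. The bile duct share was 8.00% (2.22 to 24.97) and rests on these 2 genes. Both had start sites of low CpG class only, a class of genes with a share of 2.67% (2.30 to 3.10). Neuronal and muscle genes had it at 1 of 47, Myh4, a myosin heavy chain of fast muscle, with a region of 1213 bp. The shares of different cell types in the nuclei and in the frozen tissue were not measured, and their part in these counts was not tested.

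Most genes in the lists of serum proteins and of amino acid, glucose and lipid metabolism had all 3 enzymes. Transcript abundance was not measured. The major urinary protein genes, a hepatic family described below, went the other way. They had all 3 enzymes at 4 of 21 genes, DNase I alone at 6 and no hotspot at 8. DNase I alone marked 0 of 54 serum protein genes, of which 50 had all 3 enzymes, and 0 of the 41 genes of amino acid and nitrogen metabolism, which all had all 3. This held at low CpG start sites too, with 0 of 43 serum protein genes and all 3 enzymes at 39. Glucose and glycogen metabolism (22 genes), coagulation (22), liver transcription factors (48), cytosolic ribosomal proteins (76) and subunits of the proteasome and respiratory chain (130) also had 0. Complement had 1 of 27, Cfd, and lipid and bile acid metabolism 1 of 59, Baat. These counts leave out genes that also had another enzyme within 1 kb of a start site. A DNase I-only region lay in a window of 7 of 54 serum protein, 8 of 59 lipid and bile acid, 5 of 27 complement and 3 of 22 coagulation genes. These shares were above that of all genes, 941 of 21410. Such a region lay at 2 of 41 amino acid, 1 of 22 glucose and 0 of 48 liver transcription factor genes. It lay at 4 of 76 ribosomal and 5 of 130 proteasome or respiratory chain genes. At Baat 3 DNase I-only regions lay around 2 start sites, and the one that covered a start site spanned chromosome 4 from 49519095 to 49519803 with the nearest other enzyme 3178 bp away.

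Among hepatic genes, several of those with DNase I alone belonged to families with close copies. Major urinary proteins, the pheromone carriers that male liver secretes, had DNase I alone at 6 of 21 genes (28.6%, 13.8 to 49.96) and a region on the start site in 4 of these: Mup14, Mup16, Mup18 and Mup19. The region of Mup14 was 213878 bp from another enzyme, the largest gap of any region on a start site, and that of Mup19 was 1507 bp away. Cytochrome P450 genes had it at 7 of 98 (7.14%, 3.50 to 14.0). Most genes of low CpG class have no hotspot, so shares were also taken among low CpG genes with any hotspot. DNase I alone then marked 11.8% (5.51 to 23.4) of 51 cytochrome P450 genes, near the 14.2% (12.3 to 16.3) of all 1163 such genes. It marked 46.2% (23.2 to 70.9) of 13 major urinary protein genes. Cyp2c55, Cyp2c44 and Cyp2d9 had regions of 667, 643 and 611 bp with another enzyme 958 to 1456 bp away, and Cyp4a12a and Cyp4a12b, male-biased fatty acid hydroxylases, had regions of 485 and 510 bp with gaps of 12935 and 72056 bp. Sult2a3 and Sult2a5 were the 2 of 139 conjugating enzymes (1.44%, 0.395 to 5.09), and Slc22a28, Slc17a8, Slc3a1 and Slc22a29 were among 6 of 358 solute carriers (1.68%, 0.770 to 3.61). Both of these intervals include the 1.21% of all genes. Short tags that match several copies may be lost or misplaced in the Mup, Sult2a, Cyp4a12, Slc22a28 and Slc22a29, Clec4a and Sirpb1 families, so the presence or absence of a hotspot there is uncertain.

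**Figure D4:**
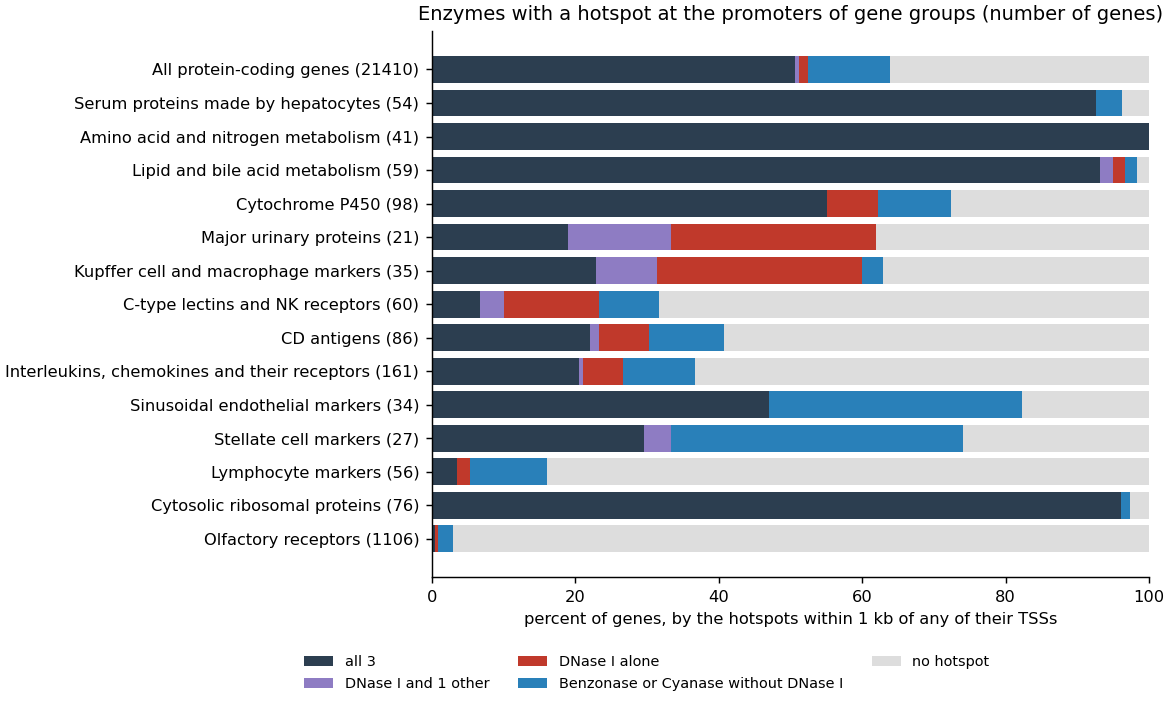
Percent of genes in each group by the enzymes with a hotspot within 1 kb of any of their start sites (number of genes in brackets). DNase I alone (red) covers 28.6% of the Kupffer cell and macrophage markers and of the major urinary proteins, 1.21% of all genes and 0 of the serum proteins, endothelial and stellate markers shown.

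Of the 188 genes with a region of the first kind, 126 (67.0%, 60.02 to 73.3) had DNase I alone at all of their start sites. Of these 126, 26 (20.6%, 14.5 to 28.5) belonged to 6 lists of macrophage, lectin, CD antigen, cytokine, lymphocyte and neutrophil genes, which hold 1.80% of all gene symbols, and 12 (9.52%, 5.53 to 15.9) to 10 lists of hepatocyte genes, which hold 2.44%. All gene symbols include every CpG class and genes without a hotspot. By contrast, 74.3% of the regions of the first kind were nearest to a low CpG start site. A share among low CpG genes was not computed for these sets. The lists were gathered into sets of 6 and of 10 after the values were seen. A further 78 belonged to none of the 34 lists, among them Spic, a transcription factor of iron-recycling macrophages, with another enzyme 22358 bp away, Nlrp3, an inflammasome sensor, at 16793 bp, and P2ry12, an ADP receptor of platelets and microglia, at 33356 bp.

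The other 62 of the 188 (33.0%, 26.7 to 40.0) had another enzyme near another start site, so that DNase I alone marked an alternative annotated start site. Whether these start sites are used in liver was not tested. Where another enzyme marked the gene, its nearest start site under such a hotspot was of high CpG class in 40 genes, intermediate in 11 and low in 8, and in the remaining 3 the other enzyme was in a window without lying on its start site. Tcf12, a helix-loop-helix transcription factor, had its DNase I-only start site 215736 bp from a high CpG start site under another enzyme. The distance was 82935 bp in Met, the receptor for hepatocyte growth factor, and 83276 bp in Nfkb1, a subunit of NF-kappaB. It was 5138 bp in Fgfr1, a fibroblast growth factor receptor. In Ghr, the growth hormone receptor, it was 110198 bp, to a start site of intermediate class. The DNase I-only start sites of these genes were of low or intermediate CpG class. In Apob, the gene of apolipoprotein B, the start site with DNase I alone was an internal one, 34580 bp from a start site under another enzyme.

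Motif letters were counted in the central 300 bp of each region on both strands, beside the same count over all promoter regions and all regions. PU.1 letters (GAGGAAGT) occurred in 53 of 977 DNase I-only promoter regions, 5.42% (4.17 to 7.03), against 2.55% of all promoter regions and 3.06% of all regions. They were more frequent in the first kind, with 22 of 191 regions or 11.5% (7.73 to 16.8), than in the regions beside a marked start site, with 18 of 484 or 3.72% (2.37 to 5.80). Among regions on a low CpG start site the share was 11.1% (7.23 to 16.7) of 171 DNase I-only regions and 3.86% (2.77 to 5.34) of 881 regions of all 3 enzymes. In windows from 250 bp before to 50 bp after the start site the letters occurred at 9.57% (6.40 to 14.1) of the 230 low CpG start sites inside DNase I-only regions, 4.45% of the 1347 inside regions of all 3 enzymes, 3.93% of the 11744 in no region and 2.96% of all start sites. The intervals of the DNase I-only start sites lay above those of the other sets. Over whole regions, which are wider in the other groups, the direction turned: the letters occurred in 6.65% of the DNase I-only promoter regions, 8.24% of all promoter regions and 9.44% of those of all 3 enzymes. In the first kind the share was then 12.6%, and on low CpG start sites it was 11.7% both in DNase I-only regions and in those of all 3 enzymes. The PU.1 letters share the core GGAAGT with the ETS letters (CCGGAAGT), and no position can match both.

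Letters of C/EBP, FOXA and STAT5, factors active in hepatocytes, occurred at shares near those of DNase I-only regions elsewhere. C/EBP letters (TTGCNNAA) occurred in 22.3% (19.8 to 25.03), FOXA letters (TGTTTAC) in 7.78% (6.26 to 9.63) and STAT5 letters (TTCNNNGAA) in 13.6% (11.6 to 15.9), against 8.52%, 2.601% and 5.61% of all promoter regions. In DNase I-only regions away from promoters the shares were 24.97%, 9.71% and 13.9%. Over whole regions the DNase I-only promoter regions were the lower, with 30.7%, 11.4% and 22.3% against 32.7%, 11.6% and 24.7% of all promoter regions. HNF1 letters occurred in 2.66% and HNF4 letters in 2.46%, against 0.688% and 0.675% of all promoter regions, and on low CpG start sites the shares were 4.09% and 3.51% in DNase I-only regions and 3.63% and 2.38% in regions of all 3 enzymes, with overlapping intervals. Over whole regions they were 3.79% and 2.87%, against 2.46% and 2.09% of all promoter regions. On low CpG start sites whole regions gave 4.09% and 3.51% with DNase I alone, and 8.06% and 4.65% with all 3 enzymes. In the windows at start sites, HNF1 and HNF4 letters each occurred at 4.35% (2.38 to 7.82) of the 230 low CpG start sites inside DNase I-only regions. The shares were 4.08% and 2.38% inside regions of all 3 enzymes, 0.954% and 0.571% at low CpG start sites in no region, and 0.639% and 0.462% of all start sites.

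Letters of SP1 and NRF1, named above for promoters rich in CpG, were rare. NRF1 letters occurred in 0 of 977 DNase I-only promoter regions and 1.70% of all promoter regions. NF-Y letters (CCAAT) were frequent, in 35.9% (33.0 to 39.0) against 28.9% of all promoter regions and 40.6% of DNase I-only regions elsewhere. Over whole regions the NF-Y shares were 54.1% in DNase I-only promoter regions and 68.5% in all promoter regions. SP1 letters (GGGCGG) occurred in 4.50% (3.37 to 5.99) of the DNase I-only promoter regions, 53.0% of all promoter regions and 2.92% of DNase I-only regions elsewhere. On low CpG start sites they occurred in 4.68% (2.39 to 8.96) of the DNase I-only regions and 16.1% (13.8 to 18.7) of the regions of all 3 enzymes. TATA box letters occurred in 19.4% (17.1 to 22.0) of the DNase I-only promoter regions and in 20.1% of those elsewhere, against 5.34% of all promoter regions. Over whole regions the share was 33.3% in DNase I-only promoter regions. It was then 26.4% of all promoter regions and 32.1% of those of all 3 enzymes. In the window at the start site they occurred at 20.1% (16.0 to 24.9) of the 304 start sites inside DNase I-only regions, and the 20.5% of all low CpG start sites lay inside that interval.

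**Figure D5:**
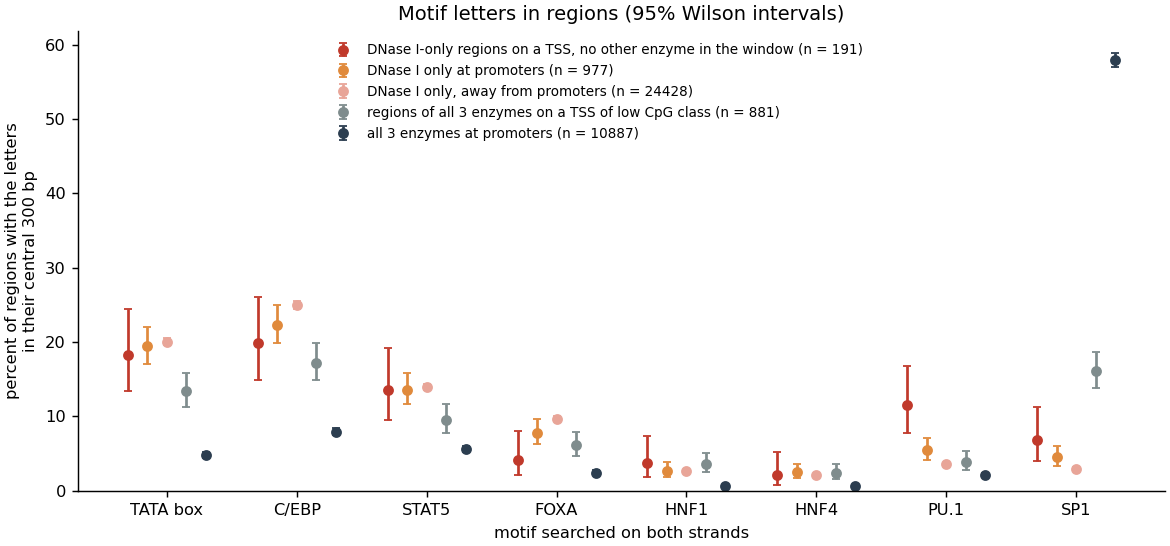
Percent of regions with motif letters in their central 300 bp, as points with 95% Wilson intervals, for 5 sets of regions. PU.1 letters stand at 11.5% in DNase I-only regions on a start site with no other enzyme and below 6% in the other sets, and SP1 letters stand at 58.0% in promoter regions of all 3 enzymes and 4.50% in DNase I-only promoter regions.

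Among the widest regions that covered a start site were those at Omd, a keratan sulfate proteoglycan of bone (1291 bp), 4930481A15Rik (1256 bp), Myh4 (1213 bp), 4930548G14Rik (1187 bp), Rims1, a presynaptic scaffold protein (1095 bp), Hc (1046 bp) and Cxcl9 (1040 bp). Those farthest from another enzyme were at Mup14, Sirpb1b, a signal regulatory protein of myeloid cells (171826 bp), Clec4a2 and Gm4070 (142143 bp). Most DNase I-only promoter regions stood alone, with 721 of 977 having no other within 100 kb. Only 42 lay in the 13 runs of 3 or more spaced by at most 100 kb, which included 4 at Slc22a28 and Slc22a29 on chromosome 19, 4 at Acnat1 and Baat and 3 at Mup6, Mup7 and Mup2 on chromosome 4. The share of promoter regions that held DNase I alone ranged from 4.32% (2.92 to 6.35) on chromosome 12 to 8.46% (6.74 to 10.6) on chromosome 3.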

How the data were processed

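Liver chromatin was digested with DNase I, Benzonase or Cyanase and sequenced. Reads were aligned by the authors (Eland or Bowtie, mm9). Hotspots were called on the combined tags of an enzyme. The paper names a false discovery rate of 0% and a threshold on tag density. It reports fewer hotspots for each enzyme than the deposited lists hold, so whether that threshold was applied to the lists is unknown. The authors deposited 1 list of positions per enzyme, with no counts or scores. There were 0 columns of other samples. Positions were set against the NCBIM37 sequence and GENCODE M1, whose build matches the lists, and printed coordinates count from 1. Hotspots were merged, start sites classed by CpG and motif letters searched in Python 3.11.15 (numpy 2.4.6, pandas 2.3.3, scipy 1.17.1, matplotlib 3.10.9), and merging, overlap and motif search were tested on simulated data. Because each list is pooled, shares with Wilson intervals and means with SD over regions are given and no test was made. The members, gene lists and motifs were chosen with earlier results of these data known.

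Genes were named by a rule: up to 4 genes of a list with a DNase I-only region on a start site and no other enzyme at any of their start sites, widest first, the 8 widest and the 4 farthest regions on a start site, and the regions at the limits of the rule. Some items that the rule covers are not reported here. Other names, including those of the printed sequences, the second kind and the alternative start sites, were chosen after the values were seen. Alternatives were other windows, overlaps, start site sets, hotspot widths, CpG thresholds and motif search over whole regions.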

Additional observations from a re-analysis of the deposited data

Results flagged for a closer look

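On chromosome X, which the choice of regions leaves out, 41 of 585 promoter regions held DNase I alone, 7.01% (95% Wilson interval 5.21 to 9.37). They were singled out because they lie outside the regions described, and no control sample exists against which to set them. Their GC content averaged 41.3% ± 5.13 (SD over 41 regions), their median width was 542 bp, and 14 covered a start site.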

How the results depend on the processing

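The number of DNase I-only promoter regions moved from 977 to 4045 when hotspots had to overlap by 50% of both to be joined, which splits merged regions by construction, to 450 and 1993 with windows of 500 bp and 2 kb, and to 524 without regions within 500 bp of another enzyme. Their share of promoter regions was then 20.1%, 3.21%, 10.2% and 3.28%, and it was 4.97% with hotspots within 150 bp joined, 7.25% with 2 kb upstream only, 7.58% with all transcripts of protein-coding genes and 5.06% without the narrowest quartile of the hotspots of each list. Mean GC content was 54.9% under the 50% overlap and within 1 SD of 43.8% otherwise. The share that covered a start site was 44.4% (50% overlap), 51.6% and 11.6% (500 bp and 2 kb), 39.1% (without regions within 500 bp), 29.0% (joined within 150 bp), 20.1% (2 kb upstream) and 29.4% (width quartile), against 23.7%. The share at a low CpG start site was 38.0% and 50.3% with the CpG thresholds 0.05 lower and higher, against 45.0%. Adding chromosome X left the number, share, GC content and start site cover of the regions within 1.5 times or the spread. The cause of these changes was not tested beyond their construction. Macrophage markers with DNase I alone numbered 10, 8, 7, 10 and 8 of 35 in the main setting, with windows of 500 bp and 2 kb, all transcripts and the width quartile, the last 4 chosen after seeing the data, while all genes gave 258, 218, 353, 273 and 213. Over whole regions the shares with motif letters rose from 5.42% to 6.65% (PU.1), 2.66% to 3.79% (HNF1), 7.78% to 11.4% (FOXA), 19.4% to 33.3% (TATA box) and 4.50% to 7.88% (SP1). For PU.1, C/EBP, FOXA, STAT5 and NF-Y the search over whole regions turned the direction against all promoter regions. No paired analysis was possible because each list was called on combined tags (3 concentrations of Benzonase or Cyanase, 2 libraries of DNase I by the header), and for the same reason no replicate could be left out. Depth per hotspot is unknown, so hotspots could not be graded by tag number.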

Other observations

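DNase I-only promoter regions also occurred at genes that are not typical of liver. Olfactory receptor genes had DNase I alone at 4 of 1106 (0.362%, 95% Wilson interval 0.141 to 0.926), with no region on a start site, and had no hotspot at 1074. Vomeronasal and taste receptors had it at 2 of 368, homeobox genes at 1 of 129 and ion channels and transmitter receptors at 2 of 208, where Benzonase or Cyanase without DNase I marked 90. In histone genes, which are rich in CpG, 1 of 74 had DNase I alone, Hist3h2ba, and zinc finger genes had 1 of 362, Zfp772. Nuclear receptors had 0 of 48, with all 3 enzymes at 39, and serpins 3 of 59.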
